A study of Mus musculus with 6 samples.

Results

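The SLC25 family comprises the mitochondrial carriers, and its transcripts were examined in bulk RNA sequencing libraries of the mouse cerebellum. Members were all protein-coding genes of the count table whose symbol starts with Slc25a, together with *Ucp1*, *Ucp2* and *Ucp3*, which gave 50 of the 31053 genes listed. The libraries were 2 labelled wild-type (WT) and 3 labelled knock-in knock-out (KIKO), and a WT sample numbered 3 in the labels was not analysed here. KIKO mice combine a knocked-in and a knocked-out allele in every cell and serve as a model of Friedreich's ataxia, and the WT controls were C57BL/6 littermates. The labels name the cerebellum and the genotype and give no age, sex or treatment. The study's text describes bulk sequencing of microglia from such mice at 6 mo of age, isolated with CD45 and then CD11b beads, and mice of both sexes. The labels do not say whether the RNA came from sorted cells or from the tissue, or that the samples were separate mice, and p-values measure only the spread between these 5 libraries. The comparison asked how the transcripts of mitochondrial carriers differ in the cerebellum of KIKO mice.

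SLC25 carriers are small proteins built from tandem repeats that span the mitochondrial inner membrane, and a few members reside in the outer membrane or in peroxisomes. They exchange nucleotides, phosphate, carboxylates, amino acids, cofactors and acylcarnitines between the cytosol and the matrix, and the uncoupling proteins let protons return to the matrix without ATP synthesis. Iron-sulfur clusters are assembled in the matrix from iron that mitoferrins bring in, and matrix glutathione is needed there too.

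Library totals ranged from 1013107 to 1351339 counts, so that 3 counts, the smallest signal considered, corresponded to between 2.28 and 3.04 normalized CPM, the counts scaled to the size of each library. This floor covers counting error only. KIKO replicate 2 stood apart. Across genes, which are not independent replicates, r of its log2 CPM with any other library was 0.672 to 0.747, whereas r among the other 4 was 0.884 to 0.931. Summed over 6 microglial markers, its level was 9319 CPM, compared with 3165 to 4770 CPM in the others. Summed over 4 oligodendrocyte markers, it was 18515 CPM, compared with 4241 to 11479 CPM, and summed over 5 neuronal markers 1627 CPM, compared with 2219 to 3752 CPM. All members of these 3 lists were detected in each library, and transcripts of cerebellar granule neurons (*Gabra6*, 130 to 252 CPM) were present beside those of microglia (*Cx3cr1*, 651 to 1184 CPM). In such mixed RNA, fewer cells of a type and less RNA per cell cannot be told apart. Results are therefore given with and without KIKO replicate 2. With all 5 libraries, 2 marker sums did not overlap between the genotypes. Over 4 monocyte and neutrophil markers, WT had 16.93 and 27.3 CPM and KIKO had 92.27, 32.45 and 35.52 CPM. *S100a8* and *S100a9* each overlapped when taken singly. Over 3 fibroblast markers, WT had 62.76 and 56.88 CPM and KIKO had 69.4, 99.68 and 73.06 CPM. Without KIKO replicate 2, the sums of choroid plexus and Purkinje neuron markers did not overlap either. Over 4 choroid plexus markers, WT had 10610 and 11658 CPM and KIKO replicates 1 and 3 had 7895 and 6612 CPM. Over 4 Purkinje neuron markers, WT had 370.6 and 252.6 CPM and KIKO replicates 1 and 3 had 552.8 and 515.5 CPM. Sums of microglial, neuronal and oligodendrocyte markers overlapped. The part of these levels in the fits with and without KIKO replicate 2 was not tested.

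Several carriers exist as paralog pairs, so the coding sequences were first compared for stretches that reads could not assign to one gene. *Slc25a4* (chromosome 8, 46206797 to 46211284, minus strand, GRCm38) and *Slc25a5* (chromosome X, 36795651 to 36798807, plus strand), which encode the ADP/ATP carriers ANT1 and ANT2, both have an open reading frame of 897 bases, and these were 77.9% identical. The open reading frames were 71.2% identical for the aspartate/glutamate carriers *Slc25a12* (chromosome 2, 71271063 to 71367749) and *Slc25a13* (chromosome 6, 6041218 to 6217173). They were 67.5% identical for the mitoferrins *Slc25a28* (chromosome 19, 43663801 to 43674881) and *Slc25a37* (chromosome 14, 69241848 to 69285112), and 57.9% identical for the glutathione carriers *Slc25a39* (chromosome 11, 102402985 to 102407946) and *Slc25a40* (chromosome 5, 8422850 to 8454797). The longest stretch that each pair shared exactly within these reading frames is shown 5′ to 3′ in lower case, from the GENCODE M21 transcripts:
*Slc25a4* and *Slc25a5*: cagttctggcgctactttgc
*Slc25a12* and *Slc25a13*: ttctttggactgtaccgaggt
*Slc25a28* and *Slc25a37*: cagctgaccatgaat
*Slc25a39* and *Slc25a40*: ccctgtggagcggcctccc

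These stretches held 20, 21, 15 and 19 bases, shorter than a window of 50 bases, so the coding parts of each pair had no such window in common. Copies elsewhere in the genome were a different matter. Of the 1644 windows of 50 bases in *Slc25a5* transcripts, 33.8% also occurred in transcripts of other genes, and all 9 of these genes were annotated with pseudogene transcripts. None of the 2304 windows of *Slc25a4* did. Reads from these *Slc25a5* windows could have been left out or shared by the counting, which makes the level of *Slc25a5* uncertain. Of the 50 members, 23 had no window in common with another gene and 3 shared over 10% of their windows, namely *Slc25a5*, *Slc25a35* (25%, the largest part with the overlapping gene *Rangrf*) and *Slc25a33* (12.6%, with the antisense gene *Gm13068*). The exons of 15 members overlapped those of another gene, 13 of them on the opposite strand, and the strand setting of the counting was not given in the sources used here.

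Of the 50 members, 46 had at least 1 count and 34 passed the filter on low counts that precedes the test. *Slc25a2*, *Slc25a41*, *Slc25a43* and *Slc25a54* had 0 counts in every library, which allows up to 3 counts each. A further 12 members were detected but not tested, 3 of them (*Slc25a31*, *Slc25a48* and *Ucp3*) with no more than 3 counts in any library. The carriers for ATP and its substrates gave the highest levels. Per kilobase of exon, *Slc25a4* was the highest with 126 ± 8.9 CPM per kb (SD, n = 5), and its lowest library, at 118, lay above every library of every other member. *Slc25a3* (chromosome 10, 91116574 to 91124059), the phosphate carrier, followed with 49.0 ± 22.5 CPM per kb, and *Slc25a5* with 40.2 ± 26.9, a pair whose ranges overlapped. *Slc25a11*, the 2-oxoglutarate/malate carrier (26.1 ± 6.18), *Slc25a39* (25.4 ± 10.5) and the calcium-regulated ATP-Mg/phosphate carrier *Slc25a23* (24.8 ± 4.16) came next and did not differ beyond their spread. The NAD carrier *Slc25a51* had 19.4 ± 3.17 CPM per kb. *Slc25a12* (12.5 ± 1.96), *Slc25a37* (11.8 ± 3.89) and *Ucp2* (11.5 ± 2.49) had overlapping ranges. Lengths were those of the merged exons of all transcripts, 2353 bases for *Slc25a4* and 5550 bases for *Slc25a3*. The distance between these 2 members per kilobase depends on that choice. If reads came only from transcript ends, as in a 3′ tag library, division by length would not apply. On the scale of CPM alone, *Slc25a4* (296 ± 20.9) and *Slc25a3* (272 ± 125) were again the highest, *Slc25a23* (131 ± 22.0) came before *Slc25a51* (107 ± 17.4), and *Slc25a5* (66.2 ± 44.2) was the 9th of the family.

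**Figure D1:**
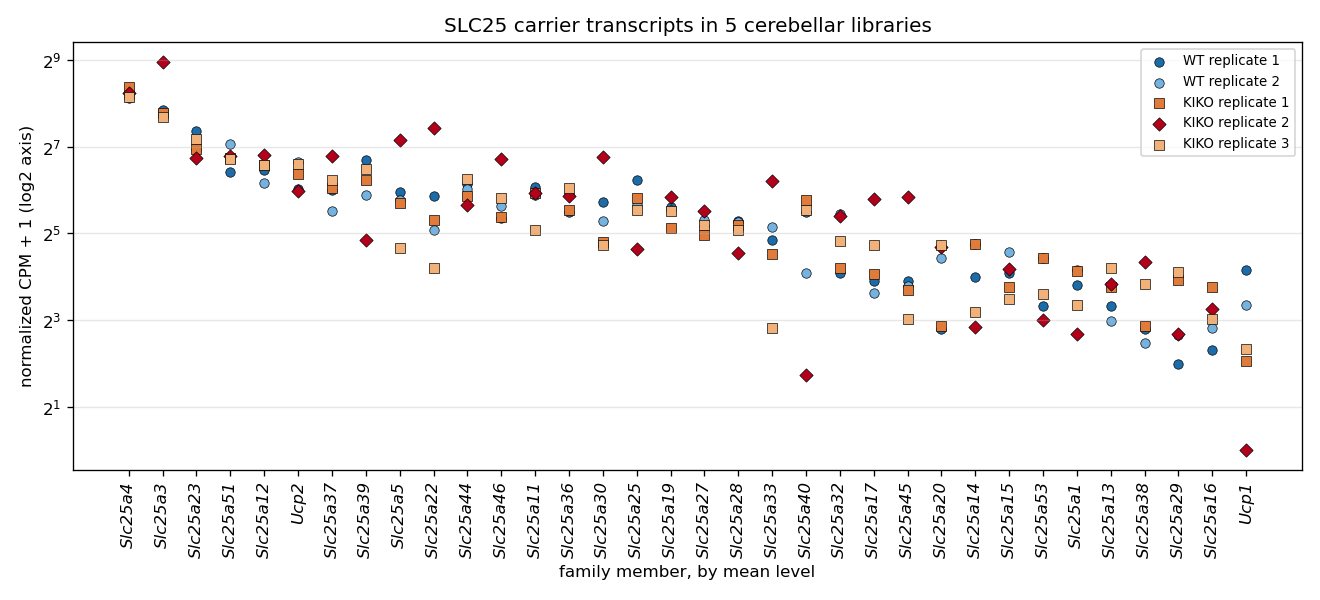
Normalized CPM + 1 on a log2 axis for the 34 tested members, ordered by mean level, with 1 point per library (circles WT, squares and red diamonds KIKO). *Slc25a4* stays between 277 and 330 CPM in all 5 libraries, whereas the red diamonds of KIKO replicate 2 lie outside the other 4 libraries for 24 of the 34 members.

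No member passed the thresholds for a difference between KIKO and WT, a log2 fold change above 0.75 in size with an unadjusted p under 0.05. Of all 10889 genes tested, 1.2% passed, 0.716% higher and 0.487% lower in KIKO. Higher genes made up 59.5% of these calls, compared with 68.6% when scaled by library size alone and 70.6% in DESeq2's test. They made up 40.2% with the replicate block, 39.1% with sample quality weights and 45.6% without KIKO replicate 2. None of the 34 members had an unadjusted p under 0.05 either in edgeR's quasi-likelihood test or in DESeq2's Wald test, and the smallest, that of *Ucp1*, was 0.0673 in the former and 0.0558 in the latter. At an adjusted p under 0.05, 0 members and 0% of all genes were called, beside 131 genes with an unadjusted p under 0.05. Log2 fold changes were positive for 18 members and negative for 16, with a median of 0.113 compared with 0.022 over all genes tested. Without KIKO replicate 2, the median was -0.087 compared with -0.011, and 9 of the 32 members tested in both fits changed sign. The biological coefficient of variation that edgeR estimated was 0.468 with all libraries and 0.238 without KIKO replicate 2, which limits what the test can detect.

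For 9 of the 34 members, no KIKO library lay within the range of WT. In KIKO, 7 members were higher in every library (20.6%, compared with 8.2% of all genes tested), and 2 were lower in every library (5.88%, compared with 8.51%). The 7 were *Slc25a12*, *Slc25a13*, *Slc25a16*, *Slc25a17*, *Slc25a29*, *Slc25a37* and *Slc25a38*, and the 2 were *Slc25a28* and *Ucp1*. None of these differences passed the test. Without KIKO replicate 2, 3 of 32 members passed the thresholds (9.38%, compared with 6.45% of all genes tested). *Slc25a29* was higher, beside 2.94% of all genes, and *Slc25a33* and *Ucp1* were lower, beside 3.51%. Their adjusted p, between 0.549 and 0.605 in edgeR's test, left no call after correction.

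**Figure D2:**
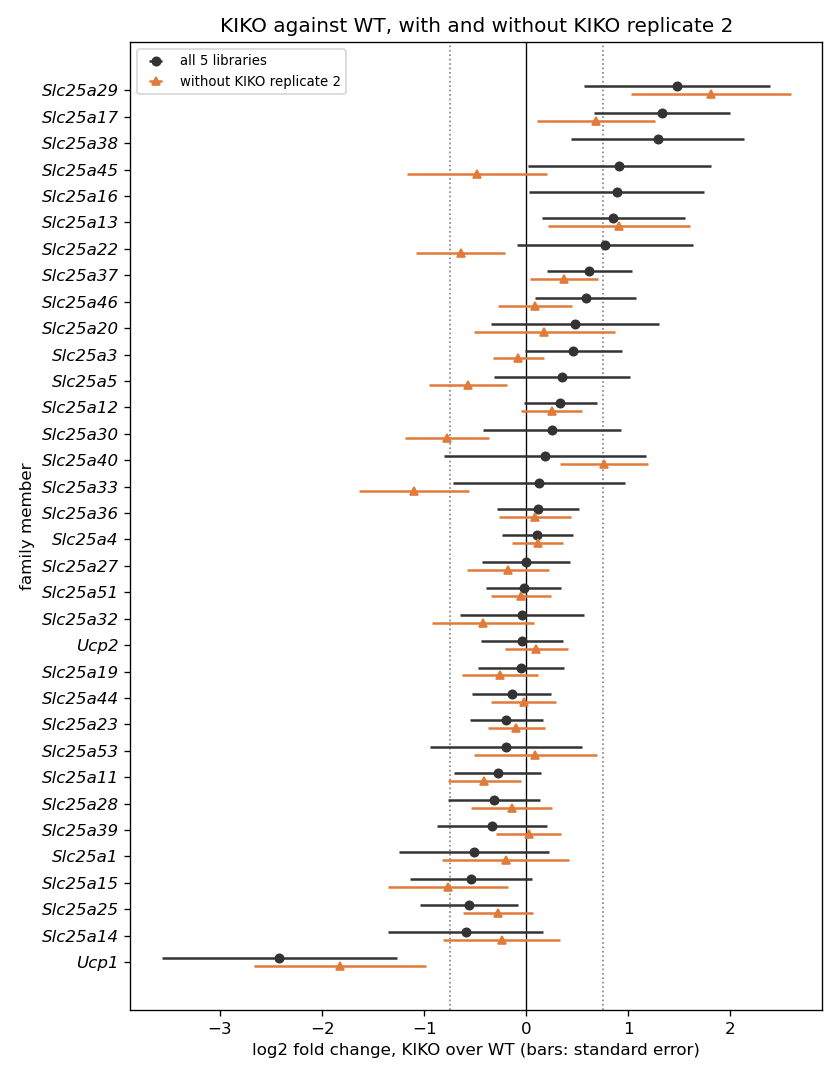
Log2 fold change of KIKO over WT for the 34 tested members, with bars for the standard error, from all 5 libraries (dark circles) and without KIKO replicate 2 (orange triangles, absent for the 2 members then below the filter). Dotted lines mark 0.75 in either direction. *Slc25a29* (1.48) and *Ucp1* (-2.42) are the highest and lowest circles, and *Slc25a22*, *Slc25a45* and *Slc25a33* lie on opposite sides of 0 in the 2 fits.

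Among the carriers of adenine nucleotides and phosphate, 5 of 8 were tested, and none passed the thresholds. *Slc25a4*, which exchanges matrix ATP for cytosolic ADP, had 277 and 288 CPM in WT replicates 1 and 2 and 330, 301 and 283 CPM in KIKO replicates 1, 2 and 3. The groups overlapped, and its log2 fold change was 0.11 (standard error 0.35), with an adjusted p of 1 by edgeR. *Slc25a3* had 229 and 215 CPM in WT and 217, 495 and 205 CPM in KIKO mice. Apart from KIKO replicate 2, its libraries were within 24.1 CPM of each other, and their coefficient of variation of 4.58% did not exceed the 6.36% that counting alone gives. The log2 fold change of *Slc25a3* was 0.46 (standard error 0.48) with all libraries and -0.08 (standard error 0.25) without KIKO replicate 2. *Slc25a5* had 60.8 and 53.1 CPM in WT and 51.3, 141 and 24.4 CPM in KIKO mice. Apart from KIKO replicate 2, its libraries had a coefficient of variation of 33.5%, above the 13.5% that counting alone gives. KIKO replicate 2 was the highest of the 5 and KIKO replicate 3 the lowest, so the log2 fold change went from 0.35 (standard error 0.67) to -0.57 (standard error 0.38) without replicate 2. *Slc25a23* had 162 and 122 CPM in WT and 122, 106 and 144 CPM in KIKO mice, with a log2 fold change of -0.20 (standard error 0.36). The calcium-regulated paralog *Slc25a25* gave a log2 fold change of -0.56 (standard error 0.48).

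The carriers of cofactors and of other nucleotides were tested for 7 of 9 members, with log2 fold changes between -0.05 and 1.33. *Slc25a17*, which transports coenzyme A, FAD and NAD across the peroxisomal membrane, had 14.0 and 11.4 CPM in WT and 15.8, 54.1 and 25.4 CPM in KIKO mice. All KIKO libraries lay above both WT libraries, replicate 1 only slightly so. Its log2 fold change was 1.33 (standard error 0.67, unadjusted p = 0.0798, edgeR adjusted p = 1) and 0.69 (standard error 0.58) without KIKO replicate 2. *Slc25a51*, which brings NAD into the matrix, had 83.7 and 133 CPM in WT and 106, 109 and 105 CPM in KIKO mice. The KIKO libraries were within 4.5 CPM of each other between the WT values, and the log2 fold change was -0.03 (standard error 0.37). *Slc25a33*, a pyrimidine nucleotide carrier, had 27.9 and 34.1 CPM in WT and 22.1, 72.6 and 6.09 CPM in KIKO mice. KIKO replicate 2 was above both WT libraries and the other KIKO libraries below, and the log2 fold change was 0.13 (standard error 0.84). Without KIKO replicate 2 it was -1.10 (standard error 0.54, unadjusted p = 0.0489, edgeR adjusted p = 0.605).

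Carboxylate carriers link the citric acid cycle to the cytosol, and 2 of the 4 were tested, neither passing the thresholds. *Slc25a11* had 65.7 and 58.4 CPM in WT and 59.9, 60.3 and 32.5 CPM in KIKO mice. Only KIKO replicate 3 was low, and the log2 fold change was -0.28 (standard error 0.43). *Slc25a1*, the citrate carrier that supplies cytosolic acetyl-CoA, had 13.0 and 16.7 CPM in WT and 16.6, 5.41 and 9.13 CPM in KIKO mice, with a log2 fold change of -0.51 (standard error 0.73). *Slc25a10*, the dicarboxylate carrier, did not pass the filter, with 8 and 11 counts in WT and 4, 0 and 5 counts in KIKO mice. Its KIKO counts were below both WT counts but close to the floor. *Slc25a20*, which carries acylcarnitines into the matrix for fatty acid oxidation, had 5.98 and 20.5 CPM in WT and 6.31, 24.7 and 25.4 CPM in KIKO mice. Replicate 1 of either genotype was low and the other libraries were high, and the log2 fold change was 0.48 (standard error 0.82).

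Of the 9 amino acid carriers, 7 were tested, 5 with a positive log2 fold change, and the libraries of 4 of these did not overlap between the genotypes. Of all genes tested, 51.9% had a positive log2 fold change and 8.2% were higher in every KIKO library. *Slc25a12*, the aspartate/glutamate carrier aralar of the malate-aspartate shuttle, had 87.7 and 70.5 CPM in WT and 93.9, 111 and 94.4 CPM in KIKO mice. KIKO lay above WT by 6.19 CPM at the nearest libraries, with a log2 fold change of 0.33 (standard error 0.36) and of 0.25 (standard error 0.30) without KIKO replicate 2. Its paralog *Slc25a13*, citrin, had 8.97 and 6.83 CPM in WT and 12.6, 13.1 and 17.3 CPM in KIKO mice. It was higher in each KIKO library, on 9 counts in each WT library and 16 or 17 in each KIKO library, and its log2 fold change was 0.85 (standard error 0.70, adjusted p = 1). *Slc25a29*, a carrier of basic amino acids, had 3 and 7 counts in WT and 18, 7 and 16 counts in KIKO mice, or 2.99 and 5.31 compared with 14.2, 5.41 and 16.2 CPM. KIKO replicate 2 was at the level of WT replicate 2. The log2 fold change was 1.48 (standard error 0.91, adjusted p = 1) and 1.81 without KIKO replicate 2 (standard error 0.78, unadjusted p = 0.0277, adjusted p = 0.549). *Slc25a38*, which imports glycine for heme synthesis, had 5.98 and 4.55 CPM in WT and 6.31, 19.3 and 13.2 CPM in KIKO mice, with a log2 fold change of 1.29 (standard error 0.85) on 6 to 25 counts. *Slc25a22*, a mitochondrial glutamate carrier, had 56.8 and 32.6 CPM in WT and 38.6, 172 and 17.3 CPM in KIKO mice. KIKO replicate 2 was 4.72 times the mean of the other libraries and KIKO replicate 3 was the lowest, so the log2 fold change was 0.77 (standard error 0.86) and -0.64 (standard error 0.44) without replicate 2. *Slc25a18*, the other glutamate carrier, had 24 counts in WT replicate 1 and between 2 and 9 counts in the other libraries and was not tested.

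The carriers of iron and glutathione were all tested, and none of the 4 passed the thresholds. *Slc25a37* (mitoferrin-1), which imports iron into the matrix and is best known in erythroid cells, had 62.8 and 44.8 CPM in WT and 64.7, 108 and 74.1 CPM in KIKO mice. KIKO replicate 1 exceeded WT replicate 1 by only 1.91 CPM, and the other KIKO libraries were higher. The log2 fold change was 0.62 (standard error 0.42, unadjusted p = 0.174, adjusted p = 1) and 0.37 (standard error 0.33) without KIKO replicate 2. Summed over 3 erythroid markers, the libraries ranged from 759 CPM in WT replicate 1 to 2532 CPM in KIKO replicate 2, of which *Hbb-bs* made up 2197 CPM. *Hba-a1* (330 CPM) and *Alas2* (5.41 CPM) were not the highest in that library, *Alas2* being the lowest of the 5, and the part of these markers in the level of *Slc25a37* was not tested. *Slc25a28* (mitoferrin-2), the broadly expressed paralog, had 37.9 and 37.2 CPM in WT and 35.5, 22.4 and 32.5 CPM in KIKO mice. All KIKO libraries were below WT, by as little as 1.67 CPM, and the log2 fold change was -0.32 (standard error 0.45). *Slc25a39*, which brings glutathione into the matrix, had 103 and 57.6 CPM in WT and 74.1, 27.8 and 88.3 CPM in KIKO mice. Its paralog *Slc25a40* had 43.8 and 15.9 CPM in WT and 53.6, 2.32 and 45.7 CPM in KIKO mice. For both, KIKO replicate 2 was the lowest library and WT replicate 2 the next lowest, and the log2 fold changes were -0.34 (standard error 0.54) and 0.19 (standard error 0.99). Without KIKO replicate 2 they were 0.02 (standard error 0.32) and 0.76 (standard error 0.43, unadjusted p = 0.0856, adjusted p = 0.67).

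Of the uncoupling proteins and their relatives, 5 of 6 were tested. *Ucp1*, the proton carrier of brown fat, had the smallest p of the family, on 17 and 12 counts in WT and 4, 0 and 4 counts in KIKO mice, or 16.9 and 9.10 compared with 3.16, 0 and 4.06 CPM. All KIKO libraries were at or near the floor and below both WT libraries. The log2 fold change was -2.42 (standard error 1.15, unadjusted p = 0.0673, adjusted p = 1) and -1.82 without KIKO replicate 2 (standard error 0.84, unadjusted p = 0.0391, adjusted p = 0.576). *Ucp2*, the member known from microglia and other immune cells, had 63.8 and 99.4 CPM in WT and 81.2, 61.8 and 95.4 CPM in KIKO mice. The groups overlapped throughout, with a log2 fold change of -0.04 (standard error 0.40) and of 0.10 (standard error 0.31) without KIKO replicate 2. KIKO replicate 2, which had the highest sum of microglial markers, had 61.8 CPM of *Ucp2*, close to the 63.8 CPM of WT replicate 1. The part of the microglial markers in the level of *Ucp2* was not tested. *Ucp3* had 1 count in 1 library. The relatives *Slc25a27*, *Slc25a14* and *Slc25a30* had log2 fold changes of -0.00, -0.59 and 0.25, and that of *Slc25a30* was -0.78 (standard error 0.41) without KIKO replicate 2.

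Among the remaining members, 3 of 9 were tested. *Slc25a46*, a protein of the mitochondrial outer membrane with a role in fission and fusion, had 39.8 and 48.5 CPM in WT and 40.2, 104 and 54.8 CPM in KIKO mice. KIKO replicate 2 was 2.26 times the mean of the others, and the log2 fold change was 0.58 (standard error 0.50) and 0.09 (standard error 0.37) without it. *Slc25a45* had 14.0 and 12.9 CPM in WT and 11.8, 56.4 and 7.10 CPM in KIKO mice, and the log2 fold change of 0.91 (standard error 0.89) became -0.48 (standard error 0.68) without KIKO replicate 2.

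The balance within paralog pairs was read from the share of counts that the first gene took, with 95% Wilson intervals that cover counting error only. *Slc25a4* held 82.0% (77.6 to 85.7) and 84.4% (80.8 to 87.5) of the ADP/ATP carrier counts in WT replicates 1 and 2. In KIKO mice it held 86.5% (83.2 to 89.3), 68.0% (64.1 to 71.7) and 92.1% (88.5 to 94.6). The KIKO libraries thus lay on both sides of WT, with means of 82.2% ± 12.6 (SD, n = 3) and 83.2% ± 1.7 (SD, n = 2). *Slc25a28* held 37.6% (28.8 to 47.4) and 45.4% (36.3 to 54.8) of the mitoferrin counts in WT. It held 35.4% (27.7 to 44.1), 17.2% (12.2 to 23.6) and 30.5% (22.5 to 39.8) in KIKO mice. All KIKO shares were below both WT shares, but only the interval of KIKO replicate 2 was clear of the WT intervals, and the means were 41.5% ± 5.48 (SD, n = 2) for WT and 27.7% ± 9.45 (SD, n = 3) for KIKO. *Slc25a12* held 90.7% and 91.2% of the aspartate/glutamate carrier counts in WT and 88.1%, 89.4% and 84.5% in KIKO mice, where all shares were below both WT shares and all intervals overlapped. *Slc25a39* held 70.1% and 78.4% of the counts of its pair in WT and 58.0%, 92.3% and 65.9% in KIKO mice. On counts and per kilobase of exon, each of the 4 KIKO means was below that of WT with all libraries. Without KIKO replicate 2, the KIKO mean of *Slc25a4* was above WT, at 89.3% of counts, and those of *Slc25a12* (86.3%), *Slc25a28* (33.0%) and *Slc25a39* (62.0%) were below. These shares were not tested.

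**Figure D3:**
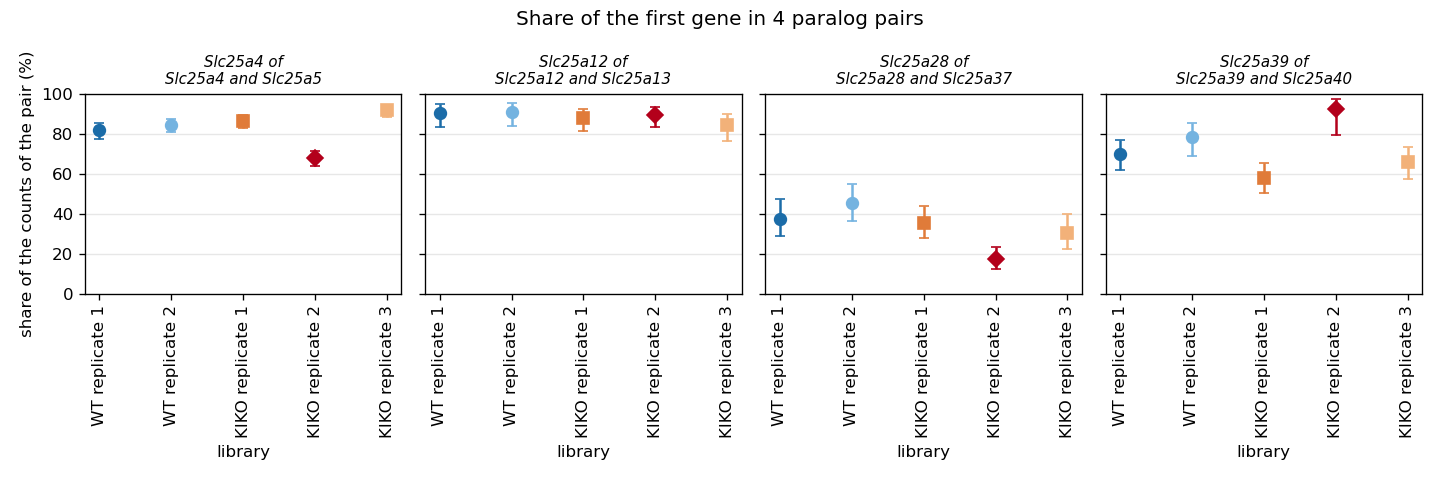
Share of the counts of a paralog pair taken by the first gene named, in percent, for each of the 5 libraries, with 95% Wilson intervals as bars. KIKO replicate 2 (red diamond) is the lowest for *Slc25a4* (68.0%) and *Slc25a28* (17.2%) and the highest for *Slc25a39* (92.3%).

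Summed over the 50 members, carrier transcripts amounted to 1919 and 1847 CPM in WT and to 1846, 2527 and 1807 CPM in KIKO mice. The 4 libraries other than KIKO replicate 2 thus differed by 112 CPM, and KIKO replicate 2 was 1.36 times their mean. The family took 0.184% (Wilson 95% interval 0.176 to 0.193) of the counts of WT replicate 1 and 0.263% (0.254 to 0.273) of those of KIKO replicate 2. In KIKO replicate 2, the summed level was 1.41 times the mean of the others for carriers of adenine nucleotides and phosphate, 1.63 times for amino acid carriers and 0.738 times for carriers of iron and glutathione. Among the 34 tested members, the most distant were *Slc25a45* (4.93 times), *Slc25a22* (4.72 times), *Slc25a17* (3.26 times) and *Slc25a33* (3.22 times) above and *Slc25a40* (0.0583 times) and *Ucp1* (0 counts) below. KIKO replicate 2 was the highest of the 5 libraries for 13 of the 34 tested members (38.2%, compared with 33.9% of all genes tested) and the lowest for 11 (32.4%, compared with 37.1%). In this respect, the carriers were close to the background of all genes. Among the other 4 libraries, 14 of the 34 members (41.2%, compared with 36.1% of all genes tested) had a coefficient of variation within 1.5 times that of counting alone. The part of the marker levels of KIKO replicate 2 in these values was not tested.

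**Figure D4:**
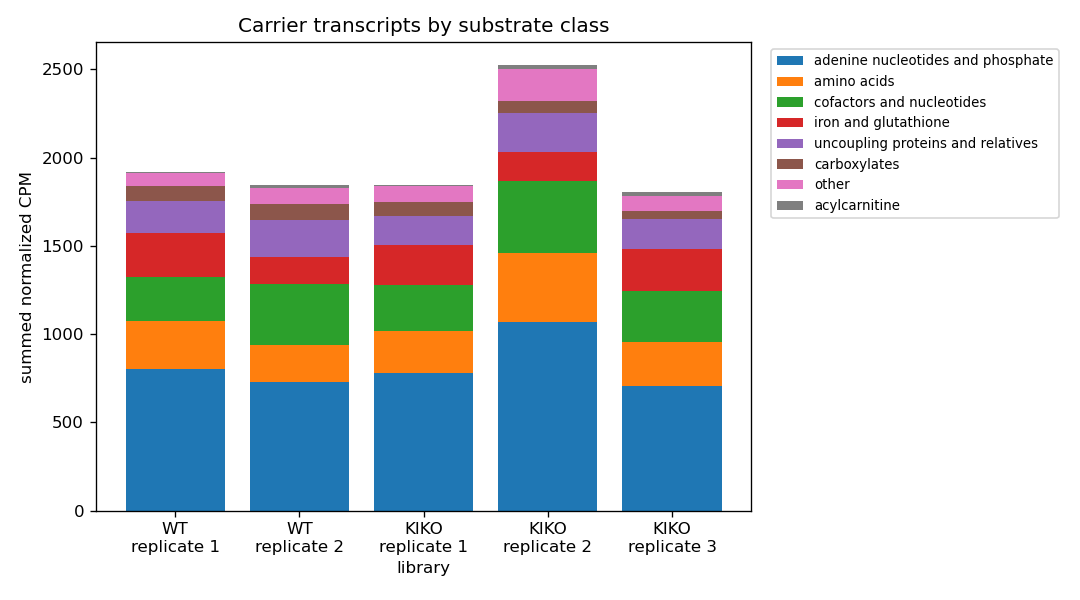
Summed normalized CPM of the SLC25 members in each library, stacked by substrate class. The bars of 4 libraries end between 1807 and 1919 CPM, and that of KIKO replicate 2 at 2527 CPM.

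Other genes of mitochondrial transport were read from the same fit. Of 31 genes for the pyruvate carrier, the outer membrane channels, the calcium uniporter, sideroflexins and related transporters, 26 were tested and none passed the thresholds. With KIKO replicate 2 left out, 2 of 25 passed, beside 6.45% of all genes tested. The outer membrane channel *Vdac3* was higher (log2 fold change 1.02, unadjusted p = 0.00496, adjusted p = 0.403 in edgeR's test), beside 2.94% of all genes. *Cpt1a*, which makes acylcarnitines, was lower (-1.35, unadjusted p = 0.0193, adjusted p = 0.532), beside 3.51%. In WT the summed level of the 31 genes was 1562 ± 66.7 CPM (SD, n = 2). In KIKO mice it was 1619 ± 34.2 CPM (SD, n = 3), and that of KIKO replicate 2 was 1.01 times the mean of the others. *Mtch2*, an outer membrane relative of the carriers that is not named as one, had 208 and 177 CPM in WT and 173, 107 and 208 CPM in KIKO mice, with a log2 fold change of -0.24. *Mtch1*, its paralog, had 105 and 128 CPM in WT and 148, 89.6 and 167 CPM in KIKO mice, with a log2 fold change of 0.21. Carriers reach the inner membrane through the small TIM chaperones and the TIM22 complex. Of 15 tested genes of this route, cytosolic chaperones included, 1 passed the thresholds, higher in KIKO mice, beside 0.716% of all genes. It was *Timm10*, with 2.99 and 1.52 CPM in WT and 20.5, 38.6 and 12.2 CPM in KIKO mice (unadjusted p = 0.00449, adjusted p = 1), and its WT values correspond to 3 and 2 counts. *Timm13*, another small TIM chaperone, passed as well when KIKO replicate 2 was left out (log2 fold change 0.99, unadjusted p = 0.0364), beside 2.94% of all genes. *Timm9*, which forms a small TIM chaperone with *Timm10*, had 108 and 106 CPM in WT and 130, 215 and 94.4 CPM in KIKO mice. The log2 fold change of *Timm9* was 0.46 (standard error 0.43). The groups overlapped for *Timm9* and did not for *Timm10*. The 2 members of this route with the highest levels, the cytosolic chaperones *Hsp90ab1* and *Hsp90aa1*, had log2 fold changes of -0.17 and -0.48.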

How the data were processed

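Members, gene lists and tests were chosen with earlier results of these data known. Reads were processed by the authors with Trimmomatic, HISAT2 (genome mm10) and featureCounts, and whole-number counts per gene were deposited without normalization. They also deposited log2 values, log2(count / size factor + 1) from DESeq2, from which 100% of the counts were regained to within 0.01. The gene annotation, strand setting and handling of reads with several alignments are not given in the sources used here. The labels name a stranded Illumina kit and the methods a digital mRNA-seq service. Each table has 2 further columns of per-sample values that match no label, which were not used; a WT sample numbered 3 was not analysed here.

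Names, biotypes and coordinates came from GENCODE M21 (GRCm38, which is mm10), matched for 30934 of 31053 identifiers (99.62%). Genes were kept by filterByExpr (minimum count 10, minimum total 15). KIKO and WT were compared in R 4.3.3 with edgeR 4.0.16 (TMM, quasi-likelihood test, two-sided), with Benjamini-Hochberg adjustment over all 10889 genes tested; adjusted p in the text are from this test. The standard error is the size of the log2 fold change divided by the square root of F. Normalized CPM are counts over the TMM-scaled sum of the kept genes. Exons of all transcripts of a gene were merged for its length. Windows of 50 bases were searched in all GENCODE transcripts on both strands, the longest open reading frame from ATG stood for the coding sequence, and paralogs were aligned with Biopython 1.88. Named members were those past the thresholds, the 10 with the highest CPM, the 4 with the smallest p and a list chosen by role. Other members with values were chosen after their values were seen, namely *Slc25a10*, *Slc25a14*, *Slc25a18*, *Slc25a25*, *Slc25a27*, *Slc25a30*, *Slc25a33* and *Slc25a45*, as were *Timm9*, *Timm13*, *Vdac3* and *Cpt1a*. Alternatives were DESeq2 1.42.0, RLE factors, library size alone, 2 other filters, the replicate block, leaving out each library, limma 3.58.1 with trend on the deposited log2 values, and sample quality weights. The fits were tested on simulated data. The gene altered in KIKO mice is not reported here.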

Additional observations from a re-analysis of the deposited data

How the results depend on the processing

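No member had an adjusted p under 0.05 in any of the 13 alternatives run, and the smallest was 0.549, without KIKO replicate 2. The number of members past the thresholds was 0 in 10 of them. It was 1 when every gene with 1 count or more was kept (*Ucp1*, lower), beside 2.28% of all genes tested. It ranged from 0 to 3 when 1 KIKO library was left out, with 0 to 1 higher and 0 to 2 lower. It was 3 without KIKO replicate 2, beside 6.45% of all genes. It was 1 without KIKO replicate 1 (*Slc25a17*, log2 fold change 1.65, unadjusted p = 0.0445 in edgeR's test), beside 1.07% of all genes. With 1 WT library left, that library was assumed to vary like the KIKO libraries. The median log2 fold change of the members was -0.011 with all genes of at least 1 count, -0.017 with at least 10 counts in every library, -0.005 with limma and -0.089 with sample quality weights, and from -0.087 to 0.199 with 1 library left out. Over all genes, the number past the thresholds was 383 (256 higher, 127 lower) when every gene with 1 count or more was kept, 271 (162 lower) with the replicate block and 519 (203 higher, 316 lower) with sample quality weights (0.163 for KIKO replicate 2). It ranged from 56 to 669 (41 to 305 higher, 15 to 364 lower) with 1 library left out, lowest without WT replicate 1.

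The genotypes share replicate numbers in the labels only. Deviations of same-numbered libraries correlated at 0.18 and 0.239, and those of differently numbered libraries of the 2 genotypes at -0.239 to 0.218. With 2 WT libraries, their deviations are exact opposites, so these values are tied to each other. With the replicate block, 0 members passed. *Slc25a40* became -0.86 and *Slc25a51* 0.02. Of 262 log2 fold changes of 21 members under the alternatives, 25 changed sign, and none of these passed the thresholds. With sample quality weights they were -0.02 for *Slc25a3*, 0.09 for *Ucp2*, 0.02 for *Slc25a39*, -0.50 for *Slc25a5*, -0.48 for *Slc25a22* and -0.14 for *Slc25a20*. With limma they were 0.02 for *Slc25a51*, -0.00 for *Slc25a5* and -0.44 for *Slc25a40*, and with library size alone 0.02 for *Slc25a51*. With 1 library left out, values ranged from -0.08 to 0.68 for *Slc25a3*, from -0.57 to 0.76 for *Slc25a5*, from -0.64 to 1.24 for *Slc25a22*, from -0.14 to 1.61 for *Slc25a20*, from -0.38 to 1.08 for *Slc25a40*, from -0.40 to 0.02 for *Slc25a23*, from -0.33 to 0.33 for *Slc25a51*, from -0.33 to 0.30 for *Ucp2* and from -0.70 to 0.13 for *Slc25a39*. For these sign changes, the cause was not tested. Depth limits members under about 10 counts a library, among them *Ucp1*, *Slc25a10* and *Slc25a29*.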
